A study of Homo sapiens with 6 samples.

Results

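The proximal tubule of the kidney takes back most of the filtered water, salt, glucose, phosphate, amino acids and protein. For this segment 30 genes, not all of them particular to it, were followed through a FLAG-VMP1 RNA immunoprecipitation. They were chosen by function, with earlier results of these data known. They are transporters, endocytic receptors, brush border and metabolic enzymes, kidney transcription factors and 1 cadherin of tubule epithelium. They were found by their symbols in the gene table, and their counts by gene identifier among the 61806 genes of the count table. Of the 30 genes, 26 had a row in the gene table, which lists all but 1 of the 35253 genes with a count, and LRP2, SLC22A6, SLC22A8 and SLC6A19 had none. HK2 cells, an immortalised line labelled as renal tubular epithelium, were transfected with FLAG-VMP1, an autophagy protein that sits in the endoplasmic reticulum membrane. After 48 hours RNA was taken either straight from total lysate (3 libraries, titled positive controls) or from material bound by FLAG antibody beads (3 libraries). Lysates and immunoprecipitates alike came from transfected cells, and no immunoprecipitate of cells without the FLAG construct was analysed here. The treatment labels number the plasmid from VMP1 to VMP6 over the 6 samples, while the titles name VMP1, and the titles were followed. The labels do not say whether the samples are separate cultures, so p-values measure the spread between these libraries, which may be technical.

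Filtered proteins are taken up at the apical membrane of the tubule by the receptors megalin (LRP2) and cubilin (CUBN), with amnionless (AMN) and the adaptor DAB2. Sodium-coupled carriers draw phosphate, glucose, amino acids and carnitine from the lumen, NHE3 (SLC9A3) secretes acid, and bicarbonate leaves at the basolateral side through NBCe1 (SLC4A4). Peptidases and gamma-glutamyltransferase stand on the brush border, and HNF4A, PAX8 and PAX2 are transcription factors of this epithelium or its precursors. Cultured tubule lines are known to lose part of this programme.

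Gene counts summed to 77753608 to 92948069 per lysate and to 54363555 to 59293096 per immunoprecipitate. VMP1 averaged 302 ± 4.25 CPM (counts scaled to a common library size with TMM; SD, n = 3) in lysate. It was at 2347 and 2685 CPM in immunoprecipitates 1 and 3 and at 274 CPM, below each lysate, in the library labelled FLAG immunoprecipitate 2. Over 20593 genes the log2 CPM of that library correlated at 0.84 with immunoprecipitate 1 and at 0.806 with immunoprecipitate 3, which correlated with each other at 0.927, while lysates correlated at 0.98 to 0.982. With the lysates it correlated at 0.914 to 0.917, immunoprecipitate 1 at 0.902 to 0.905 and immunoprecipitate 3 at 0.864 to 0.869. These are correlations across genes of libraries that share a transcriptome, given as a description. Each result is therefore given for each immunoprecipitate, and tests of single members with and without the library labelled 2. These are bulk samples, in which fewer cells of a type and less RNA per cell cannot be told apart. Levels in the immunoprecipitates are scaled shares of the bound RNA. A gene said to fall or rise there has a smaller or larger share than in lysate, and amounts are not measured.

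Gene coordinates are those of the deposited gene table (GRCh38.p14). Markers of other cells were read from 8 lists, 43 genes in all, chosen with earlier results of these data known. Markers of neutrophils and other leukocytes, 6 of 6 at 1 CPM or more, summed to 316 to 540 CPM in the lysates, with the highest sum in lysate 1 (PTPRC, FCGR3B, CSF3R, S100A8, S100A9 and CXCR2), and to 104, 381 and 13.1 CPM in immunoprecipitates 1, 2 and 3. Fibroblast markers, 7 of 7 at 1 CPM or more (LUM, DCN, COL1A1, COL1A2, COL3A1, PDGFRA and PDGFRB), summed to 158 to 184 CPM in lysate and to 23.9, 343 and 25.9 CPM in immunoprecipitates 1, 2 and 3. LUM was the 1 marker called over all 6 libraries and fell by 2.58 (edgeR adjusted p = 0.0323), and by 2.75 without the library labelled 2 (edgeR adjusted p = 6.73e-06). Markers of podocytes, 2 of 5 at 1 CPM or more (PODXL and SYNPO), summed to 198 to 206 CPM in lysate and to 86.2, 345 and 99.7 CPM. WT1, a defining podocyte factor, had 0 counts in 5 libraries and 3.74 CPM in the library labelled 2. Endothelial markers, 1 of 5 at 1 CPM or more (PECAM1), summed to 17.9 to 31.7 CPM in lysate and to 6.88, 25 and 2.91 CPM. Of 20 markers of the loop of Henle, distal tubule and collecting duct cells, CLDN16, AQP3, AVPR2 and SLC12A3 (4 of 20) reached 1 CPM in lysate. UMOD, AQP2, SCNN1B and FOXI1 had no row. The loop list, almost all of it CLDN16, summed to 26.7 to 27.7 CPM in lysate and to 14.3, 6.5 and 16.4 CPM in immunoprecipitates 1, 2 and 3. Collecting duct markers summed to 4.52 to 6.37 CPM in lysate and to 1.73, 10.5 and 3.76 CPM, distal tubule markers to 1.61 to 2.82 CPM and 1.64, 2.17 and 1.8 CPM, and intercalated cell markers to 1.09 to 2.27 CPM and 3.43, 2.4 and 3.69 CPM. The part of these cells in any result on the tubule genes was not tested.

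Of the 30 genes, 16 were expressed in lysate at a mean of 1 CPM or more, and 14 were not. The 16 were the adaptor DAB2, the transporters SLC34A1, SLC34A2, SLC5A2, SLC2A2, SLC22A5, SLC4A4 and SLC9A3, the enzymes GGT1, ANPEP, DPP4, MME and GATM, the factors PAX2 and PAX8, and the cadherin CDH16. Levels can be compared between genes only per length, and on the FPKM scale (fragments scaled by gene length and library) GGT1 led at 46.9 ± 1.3 (SD, n = 3) in lysate. PAX8 followed at 37 ± 1.18 FPKM, DPP4 at 14.9 ± 0.304, SLC4A4 at 10.9 ± 0.0755, MME at 6.66 ± 0.538, DAB2 at 5.65 ± 0.272 and CDH16 at 4.92 ± 0.141. The ranges of these 7 genes over the 3 lysates did not overlap those of their neighbours in this order. ANPEP at 3.01 ± 0.844 FPKM, SLC2A2 at 1.89 ± 0.133, SLC9A3 at 1.59 ± 0.531 and GATM at 1.13 ± 0.0661 were the other genes above 1 FPKM, and SLC9A3 overlapped both SLC2A2 and GATM in its spread. The remaining 5 of the 16, SLC22A5, SLC5A2, SLC34A2, PAX2 and SLC34A1, lay between 0.278 and 0.542 FPKM.

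The 1 CPM line passed between SLC34A1, at 1.42 ± 0.214 CPM, and AMN, at 0.979 ± 0.166 CPM. AMN exceeded 1 CPM in lysates 2 and 3 and SLC3A1 in lysates 1 and 2. The receptors LRP2 and CUBN, the organic anion carriers SLC22A6 and SLC22A8, the amino acid carriers SLC6A19, SLC7A9 and SLC3A1, the glucose carrier SLC5A1, the dicarboxylate carrier SLC13A3, the water channel AQP1, the gluconeogenic enzymes FBP1 and PCK1 and the nuclear receptor HNF4A were all below it. HNF4A had 4 to 8 counts per lysate and SLC5A1 had 0, 0 and 8. A count of 0, taken as at most 3 counts, allows up to 0.0341 to 0.0395 CPM in a lysate and 0.0469 to 0.0567 CPM in an immunoprecipitate, counting error only. The plot of levels by library shows the 26 genes with a row.

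**Figure D1:**
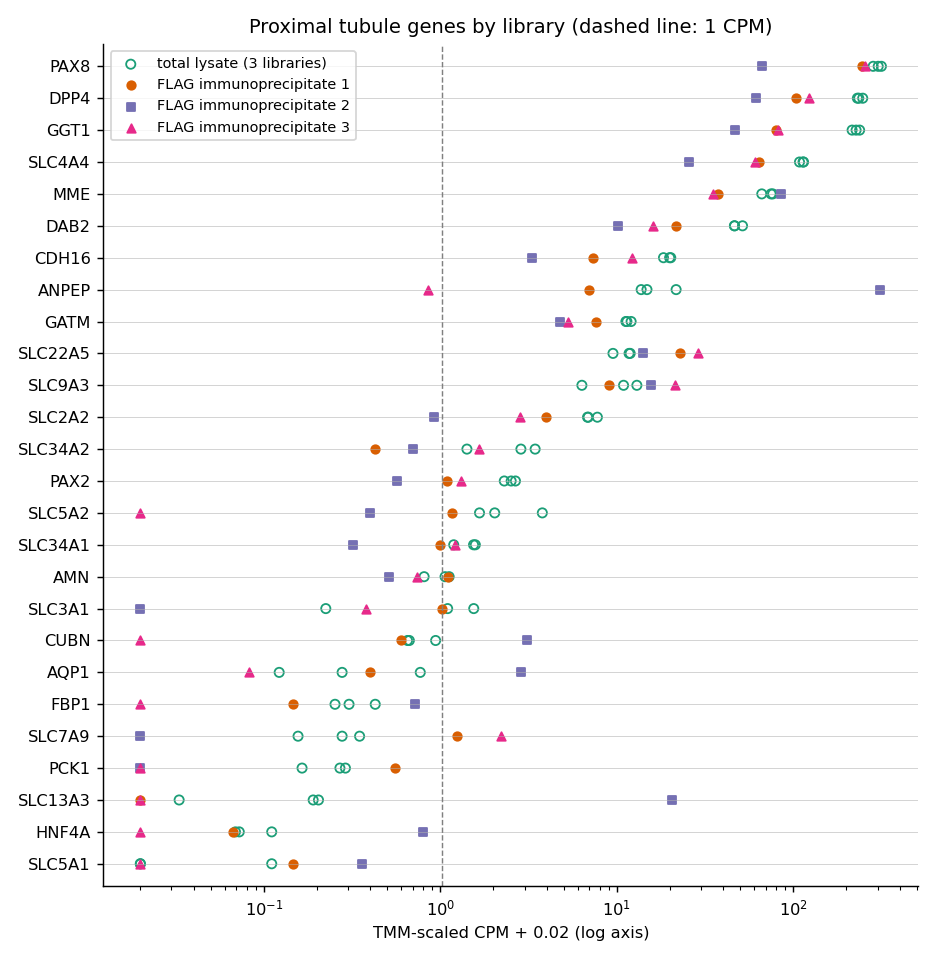
TMM-scaled CPM (log axis, 0.02 added so that 0 can be drawn) of the 26 tubule genes with a row, ordered by mean lysate level, in 3 lysates (open circles) and 3 FLAG immunoprecipitates (filled symbols); the dashed line is 1 CPM. For most expressed genes the square of immunoprecipitate 2 is the leftmost symbol, while for ANPEP it is far right at 308 CPM.

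Most of the expressed tubule genes were lower in each immunoprecipitate than in every lysate, and to a different depth in the library labelled 2. In immunoprecipitate 1, 14 of 16 were below all lysates (52.7% of the 15100 genes at 1 CPM or more in lysate) and 1 was above (38.5% of those genes). In the library labelled 2, 12 were below (47.1% of all) and 4 above (40% of all). In immunoprecipitate 3, 12 were below (54.4% of all) and 2 above (37.9% of all). The median level of the 16 genes was 49.3%, 22.7% and 52.3% of the lysate mean in immunoprecipitates 1, 2 and 3, where the median of all 15100 genes was 87.2%, 95% and 85%. On the log2 scale the medians of the 16 were -1.02, -2.14 and -0.94, against -0.20, -0.07 and -0.23 for all genes.

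The 3 immunoprecipitates together lay below the 3 lysates, with no overlap, for 10 genes, DAB2, SLC5A2, SLC2A2, SLC4A4, GGT1, DPP4, GATM, PAX2, PAX8 and CDH16, beside 21.8% of the 15100 genes. They lay above for 1 gene, SLC22A5, beside 12.8%. The library labelled 2 was below both other immunoprecipitates for 11 of the 16 (42.9% of all genes) and above both for ANPEP and MME (47.6% of all genes). Among the 44 expressed genes of a wider tubule list, that library was below both for 21 (47.7%) and above both for 21 (47.7%). Of the 16, 11 lay in a narrow band there, with shifts from the lysate mean between -3 and -1.5, a range chosen after the values were seen and one that holds 7.67% of all genes and 17 of the 44 expressed genes of a wider tubule list (38.6%). In immunoprecipitates 1 and 3 that range held 2 and 1 of the 16, beside 9.37% and 10.9% of all genes. It held 13.6% and 20.5% of the 44 there. The shift of all genes differed with lysate level, so the same medians were read within bands of lysate level. For the 4 tubule genes above 100 CPM, PAX8, DPP4, GGT1 and SLC4A4, the median was 49.7%, 22.5% and 52.8% of lysate in immunoprecipitates 1, 2 and 3, against 66.3%, 87% and 66.3% for the 2307 genes of that band. For the 5 at 1 to 10 CPM it was 46.8%, 22% and 52.8%, against 100.4%, 96.4% and 94.1% for 4730 genes. For the 7 at 10 to 100 CPM it was 51.9%, 118% and 48.3%, against 88.5%, 97.5% and 88.1% for 8063 genes.

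**Figure D2:**
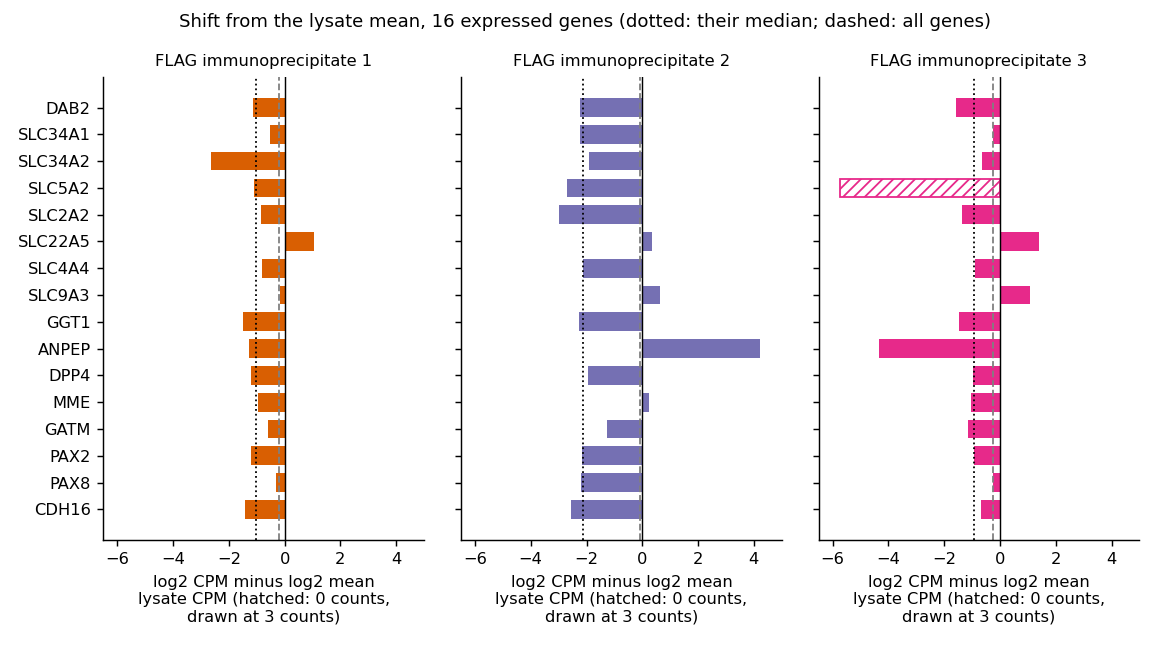
Shift of each expressed tubule gene from its lysate mean (log2 CPM) in each FLAG immunoprecipitate; the hatched bar stands for 0 counts and is drawn at 3 counts. The dotted line is the median of the 16 genes (-1.02, -2.14 and -0.94) and the dashed line the median of all 15100 genes (-0.20, -0.07 and -0.23).

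**Figure D3:**
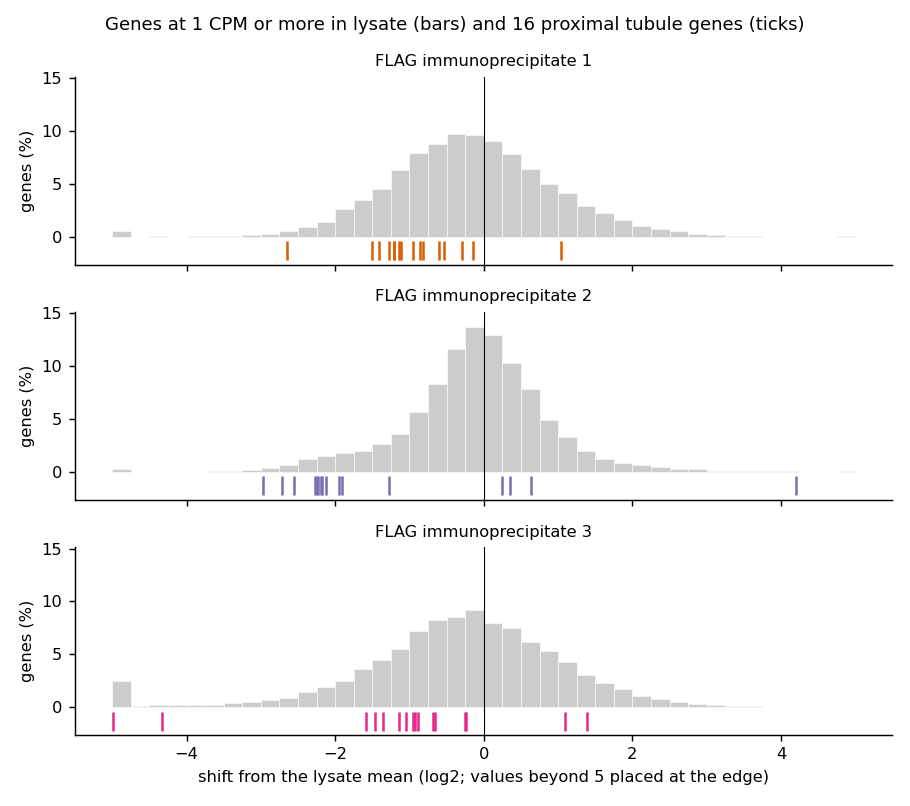
Histogram of shifts from the lysate mean (log2, percent of 15100 genes at 1 CPM or more in lysate) for each FLAG immunoprecipitate, with the 16 tubule genes as ticks under it. In the panel of immunoprecipitate 2, 11 ticks lie between -3 and -1.5 and ANPEP stands at 4.20, while all genes centre near 0.

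No tubule gene passed the test over all 6 libraries. With edgeR's quasi-likelihood test, 0 of 24 tested members were called lower, beside 0.5% of 20593 genes, and 0 higher, beside 0.16%. At an unadjusted p below 0.05 there were 9 of the 24, beside 21.3% of all tested genes. Of these, 8 were lower, beside 9.44% of all, and SLC22A5 was higher, beside 11.9%. The lowest adjusted p was 0.0546, for GGT1. DESeq2 called 4 of the 23 members with an adjusted p, all lower, GGT1, DAB2, DPP4 and GATM, beside 4.33% of 22205 genes lower and 7.02% higher. The median log2 fold change, immunoprecipitate minus lysate, was -0.73 for the 24 and 0.06 for all tested genes, and -1.24 for the 16 expressed genes against -0.05 for all expressed genes. Without the library labelled FLAG immunoprecipitate 2, edgeR called 10 of 24 lower, beside 27.2% of 22062 genes, and 2 higher, SLC22A5 and SLC7A9, beside 23.9%. The 10 that fell were DAB2, SLC2A2, SLC4A4, GGT1, DPP4, MME, GATM, PAX2, PAX8 and CDH16, and all of them are among the 16 expressed genes. The median of the 16 was then -1.02, against -0.20 for all expressed genes. Leaving out any other single library left 0 members called. Over the alternatives other than DESeq2 and the omission of the library labelled 2, the adjusted p of the 16 genes ranged from 0.0516 to 0.98.

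**Figure D4:**
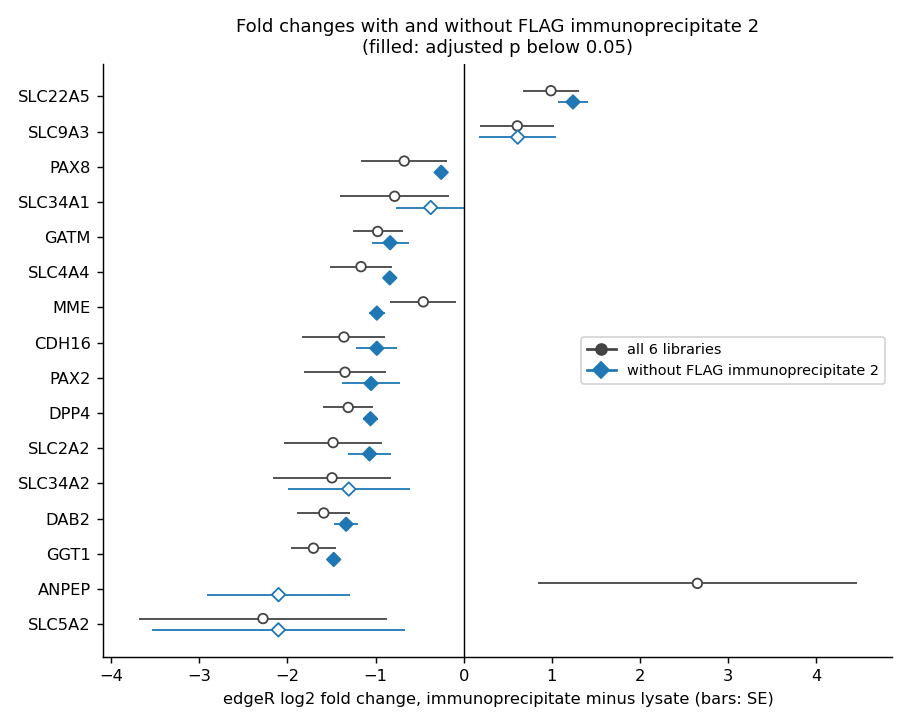
edgeR log2 fold change (immunoprecipitate minus lysate, bars are SE) of the 16 expressed genes over all 6 libraries (circles) and without FLAG immunoprecipitate 2 (diamonds), filled where the adjusted p is below 0.05. No circle is filled, 10 diamonds are filled below 0 and SLC22A5 above it, and ANPEP changes sign.

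Of the endocytic genes, DAB2 (ENSG00000153071, chr5:39371675-39425233, minus strand), which links megalin to clathrin, was the only one at 1 CPM or more. It was at 46.4, 51.5 and 46.3 CPM in lysates 1, 2 and 3 and at 21.7, 10.2 and 16.1 CPM in immunoprecipitates 1, 2 and 3, lowest in the library labelled 2 and with no overlap of the groups. The fitted log2 difference was -1.59 (SE 0.30, adjusted p = 0.0851 by edgeR), and without the library labelled 2 DAB2 fell by 1.33 (SE 0.14, adjusted p = 0.000404 by edgeR). In lysate its counts were shared between a coding transcript of 15 exons, ENST00000320816, with 42.1% to 66.1%, and one of 14 exons, ENST00000545653, with 28.9% to 49.6%. The first took 99.9%, 95.2% and 99.8% in the immunoprecipitates, though such assignments are estimates. CUBN, the receptor for intrinsic factor and albumin, was at 0.632 to 0.921 CPM over the lysates, against 0.582, 3.10 and 0 CPM in immunoprecipitates 1 to 3, highest in the library labelled 2. AMN, which carries cubilin to the surface, was at 0.79 to 1.1 CPM in lysate and 0.491 to 1.09 CPM in the immunoprecipitates, and 92.3% of its lysate level lay on transcripts not annotated as coding. AQP1, the main water channel of this segment, was at 0.102 to 0.75 CPM over the lysates, against 0.378, 2.85 and 0.0626 CPM in immunoprecipitates 1 to 3.

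Among phosphate carriers, SLC34A1 (NaPi-IIa), the renal form, measured 1.17, 1.56 and 1.52 CPM across lysates 1 to 3 and 0.976, 0.302 and 1.19 CPM across immunoprecipitates 1 to 3, where the library labelled 3 overlapped lysate 1. Only 21.6% of its lysate level lay on coding transcripts, and most counts were on ENST00000513614, a noncoding transcript of 4 exons. SLC34A2 (NaPi-IIb), the form of lung and gut, measured 1.4, 3.43 and 2.84 CPM across lysates 1 to 3 and 0.409, 0.68 and 1.63 CPM across immunoprecipitates 1 to 3, all on its 1 coding transcript. The log2 fold changes were -0.78 (SE 0.62, adjusted p = 0.498 by edgeR) and -1.49 (SE 0.67, adjusted p = 0.265 by edgeR). Neither was called without the library labelled 2 (log2 -0.37, SE 0.39, adjusted p = 0.469, and -1.30, SE 0.69, adjusted p = 0.167, by edgeR).

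Glucose enters the cell through SGLT2 (SLC5A2) and SGLT1 (SLC5A1) and leaves through GLUT2 (SLC2A2). SLC5A2 measured 3.76, 2.01 and 1.65 CPM across lysates 1 to 3 and 1.15, 0.378 and 0 CPM across immunoprecipitates 1 to 3, a group difference without overlap that was not called (log2 fold change -2.28, SE 1.41, adjusted p = 0.396 by edgeR), nor without the library labelled 2 (-2.10, SE 1.44, adjusted p = 0.271 by edgeR). In lysate 34.3% of its level lay on the coding transcript, and the gene overlaps RUSF1 on the other strand, at 85.4 CPM in lysate. SLC5A1 had at most 18 counts in any library. SLC2A2 measured 6.81, 6.87 and 7.74 CPM across lysates 1 to 3 and 3.95, 0.907 and 2.80 CPM across immunoprecipitates 1 to 3, with 86.3% to 90.3% of lysate counts on coding transcripts. The edgeR estimate was -1.48 (log2, SE 0.55, adjusted p = 0.207), and it fell by 1.07 (SE 0.24, adjusted p = 0.0111 by edgeR) without the library labelled 2, in which it was lowest.

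SLC22A5 (OCTN2, ENSG00000197375, chr5:132369710-132395612, plus strand), the carnitine carrier, was the one expressed gene above every lysate in every immunoprecipitate. It measured 11.7, 11.9 and 9.49 CPM across lysates 1 to 3 and 22.8, 14.1 and 28.9 CPM across immunoprecipitates 1 to 3, least raised in the library labelled 2. On the log2 scale the difference was 0.99 (SE 0.31, adjusted p = 0.165 by edgeR), and SLC22A5 rose by 1.24 (SE 0.17, adjusted p = 0.00131 by edgeR) without that library. Most of these counts were assigned to transcripts with a retained intron, with 9.73, 6.63 and 5.22 CPM across lysates 1 to 3 and 21.0, 9.45 and 28.9 CPM across immunoprecipitates 1 to 3. Its coding transcripts had 1.9, 4.46 and 3.48 CPM across lysates 1 to 3 and 0.281, 4.63 and 0 CPM across immunoprecipitates 1 to 3. The gene's higher level in immunoprecipitates 1 and 3 was thus assigned to retained-intron transcripts and not to coding ones. Such assignments are estimates. SLC22A5 also overlaps MIR3936HG on the other strand, at 1.72, 1.39 and 1.16 CPM across lysates 1 to 3. MIR3936HG had 5.27, 1.02 and 4.8 CPM across immunoprecipitates 1 to 3, so the counts of SLC22A5 are uncertain. Over all genes, retained-intron transcripts took 5.39% to 5.64% of counts in the lysates and 8.75%, 6.04% and 8.77% in immunoprecipitates 1, 2 and 3. SLC13A3 (NaDC3), the basolateral dicarboxylate carrier, had 1, 15 and 15 counts in the lysates, 0 in immunoprecipitates 1 and 3, and 1093 counts, or 20.7 CPM, in the library labelled 2. Its fitted fold change turned from 5.78 to -6.20 when that library was left out and passed the test in neither fit (edgeR adjusted p = 0.314 and 0.084).

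SLC4A4 returns bicarbonate to blood and, at 10.9 FPKM, had the highest lysate level of the carriers among the 30 genes (ENSG00000080493, chr4:71062667-71572087, plus strand). It measured 108, 114 and 113 CPM across lysates 1 to 3 and 63.7, 25.7 and 60.4 CPM across immunoprecipitates 1 to 3, with no overlap and the lowest level in the library labelled 2. Immunoprecipitate minus lysate, the log2 difference was -1.16 (SE 0.35, adjusted p = 0.155 by edgeR), and SLC4A4 fell by 0.84 (SE 0.06, adjusted p = 6.89e-05 by edgeR) without that library. The gene is known to be read from an upstream promoter, which gives the form named NBCe1-B, and from a downstream promoter within the gene, which gives the kidney form NBCe1-A. Transcripts that begin within 100 bases of the upstream RefSeq start (chromosome 4, 71187259) held 51.1%, 51.4% and 59.1% of SLC4A4 counts in the lysates, and those of the downstream start (71339020) held 48.3%, 48% and 40.2%. In immunoprecipitate 1 the upstream transcripts held 99.2%, in the library labelled 2 the downstream ones held 96.8%, and in immunoprecipitate 3 they held 100%. Immunoprecipitates 1 and 3 thus had nearly equal gene levels on opposite starts. The split between transcripts of a gene is an estimate made when reads were assigned.

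The 250 bases before each start are shown because the counts divide between them (RefSeq, GRCh38.p14, plus strand, 5′ to 3′). The upstream window (chr4:71187009-71187258) has a GC content of 75.2% and the downstream window (chr4:71338770-71339019) of 48.4%.
SLC4A4 upstream start: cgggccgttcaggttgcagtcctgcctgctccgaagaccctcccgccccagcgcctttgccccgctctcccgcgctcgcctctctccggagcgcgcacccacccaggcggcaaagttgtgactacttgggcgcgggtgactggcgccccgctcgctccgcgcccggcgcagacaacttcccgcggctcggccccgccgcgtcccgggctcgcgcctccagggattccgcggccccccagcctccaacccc
SLC4A4 downstream start: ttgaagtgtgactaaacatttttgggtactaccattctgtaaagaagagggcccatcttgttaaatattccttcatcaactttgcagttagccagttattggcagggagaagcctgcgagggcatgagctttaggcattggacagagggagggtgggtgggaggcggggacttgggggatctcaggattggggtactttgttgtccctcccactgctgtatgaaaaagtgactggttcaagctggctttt

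NHE3 (SLC9A3), the sodium-proton exchanger of the brush border, measured 10.9, 13.0 and 6.32 CPM across lysates 1 to 3 and 9.06, 15.6 and 21.4 CPM across immunoprecipitates 1 to 3. The groups overlapped, and the change was not called (log2 fold change 0.61, SE 0.42, adjusted p = 0.444 by edgeR), nor was it without the library labelled 2 (0.61, SE 0.43, adjusted p = 0.288 by edgeR). Its counts are uncertain, since the gene overlaps EXOC3, at 44.4 CPM in lysate, and SLC9A3-AS1, at 7.99 CPM, on the other strand. PP7080, which overlaps it on the same strand, had 0 CPM in every library but lysate 3, where it had 6.23 CPM and SLC9A3 was lowest. SLC7A9 and SLC3A1 form the carrier of cystine and dibasic amino acids. SLC7A9 was at 0.136 to 0.329 CPM over the lysates, against 1.23, 0 and 2.19 CPM in immunoprecipitates 1 to 3. Its fitted change was 2.24 (log2, SE 1.54, adjusted p = 0.443 by edgeR), and it rose by 2.83 (SE 0.60, adjusted p = 0.00896 by edgeR) without the library labelled 2. All 140 of its counts in immunoprecipitate 3 were on ENST00000590465, annotated as a target of nonsense-mediated decay. SLC3A1 was at 0.205 to 1.53 CPM over the lysates, against 1.01, 0 and 0.36 CPM in immunoprecipitates 1 to 3, and it overlaps PREPL, at 73.2 CPM in lysate, on the other strand. ENSG00000285542, which overlaps SLC3A1 on the same strand, had 1.89 CPM in lysate 3, where SLC3A1 was lowest among the lysates, and 0 CPM in the other libraries, so the place of SLC3A1 below the 1 CPM line is uncertain.

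The brush border enzymes GGT1 and DPP4 were among the 3 members with the highest lysate FPKM. GGT1, gamma-glutamyltransferase (ENSG00000100031, chr22:24594811-24629001, plus strand), measured 215, 237 and 227 CPM across lysates 1 to 3 and 79.5, 47.0 and 81.9 CPM across immunoprecipitates 1 to 3, or 35.1%, 20.8% and 36.2% of the lysate mean. The fitted log2 difference was -1.70 (SE 0.26, adjusted p = 0.0546 by edgeR), and it fell by 1.47 (SE 0.06, adjusted p = 1.07e-05 by edgeR) without the library labelled 2. GGT1 has near-identical copies in the genome, so its counts are uncertain. DPP4 (ENSG00000197635, chr2:161992245-162074215, minus strand), which trims dipeptides from peptide ends, measured 231, 247 and 235 CPM across lysates 1 to 3 and 103, 61.3 and 123 CPM across immunoprecipitates 1 to 3. The edgeR estimate was -1.31 (log2, SE 0.28, adjusted p = 0.0988), and it fell by 1.06 (SE 0.09, adjusted p = 0.000152 by edgeR) without that library. Coding transcripts held 76.1%, 57.5% and 30.1% of DPP4 counts in the lysates and 89.2%, 97.1% and 87% in the immunoprecipitates. The level assigned to coding DPP4 transcripts was thus 176, 142 and 70.6 CPM across lysates 1 to 3. It was 92, 59.5 and 107 CPM across immunoprecipitates 1 to 3, so the groups overlapped, and such assignments are estimates.

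MME (neprilysin, ENSG00000196549, chr3:155024124-155183704, plus strand), a metallopeptidase, measured 74.7, 76.4 and 66.2 CPM across lysates 1 to 3 and 37.6, 85.7 and 35.0 CPM across immunoprecipitates 1 to 3. The library labelled 2 was above all lysates and the others below, and the fold change was -0.46 (SE 0.38, adjusted p = 0.516 by edgeR), while MME fell by 0.98 (SE 0.09, adjusted p = 0.000215 by edgeR) without that library. ANPEP (aminopeptidase N, CD13, ENSG00000166825, chr15:89784895-89815401, minus strand) is an enzyme of the brush border and of myeloid cells and fibroblasts. It measured 21.7, 14.8 and 13.7 CPM across lysates 1 to 3 and 6.94, 308 and 0.829 CPM across immunoprecipitates 1 to 3, so the library labelled 2 held 18.4 times the lysate mean and immunoprecipitate 3 held 4.96% of it. On the log2 scale the difference was 2.65 (SE 1.81, adjusted p = 0.437 by edgeR) and, without the library labelled 2, -2.10 (SE 0.81, adjusted p = 0.0725 by edgeR), and neither was called. ANPEP was highest among lysates in lysate 1. So were the summed markers of leukocytes (540 CPM there, 338 and 316 CPM in the others) and fibroblasts (184, 166 and 158 CPM). PECAM1, which made up almost all of the endothelial sum, was also highest there (30.7, 18.7 and 17.7 CPM). The other endothelial markers, VWF, KDR, CDH5 and TEK, averaged 0.0351 to 0.37 CPM in lysate. ANPEP was lowest among immunoprecipitates in immunoprecipitate 3, as were the leukocyte sum (13.1 CPM) and PECAM1 (2.6 CPM). The fibroblast sum was lowest in immunoprecipitate 1 (23.9 CPM). The fibroblast sum of 343 CPM in the library labelled 2 was above each lysate. The leukocyte sum of 381 CPM there was below lysate 1 and above lysates 2 and 3. Of the fibroblast list, COL1A1 (148 CPM), COL1A2 (125 CPM), PDGFRA (6.2 CPM) and PDGFRB (18.1 CPM) were above each lysate in that library. DCN (16.9 CPM) and COL3A1 (10.2 CPM) lay within the lysate range, and LUM (18 CPM) was below it. In the library labelled 2, 40% of the 15100 genes were above each lysate and 47.1% below. Those above included genes outside the leukocyte and fibroblast lists, such as ASS1 of the wider tubule list (381 CPM), PODXL (142 CPM) and AQP3 (8.99 CPM). The part of leukocytes, fibroblasts and endothelial cells in the ANPEP and MME values was not tested.

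ANPEP is known to have a promoter near its coding exons that serves epithelia and an upstream promoter that serves myeloid cells and fibroblasts. In every library at least 90.6% of ANPEP counts were on transcripts that begin within 100 bases of the upstream RefSeq start (chromosome 15, 89814852), 98.3% to 99% in the lysates and 96.8%, 99.6% and 90.6% in immunoprecipitates 1, 2 and 3. None of the listed transcripts begins within 100 bases of the start nearer to the coding exons (89806628), so counts from it could not be assigned there. Both windows are shown for that reason (RefSeq, GRCh38.p14, minus strand, 250 bases before the start, 5′ to 3′). The upstream window (chr15:89814853-89815102) has a GC content of 74%, and the nearer window (chr15:89806629-89806878), one of 64.4%. RefSeq windows were found for 25 of the 30 genes.
ANPEP upstream start: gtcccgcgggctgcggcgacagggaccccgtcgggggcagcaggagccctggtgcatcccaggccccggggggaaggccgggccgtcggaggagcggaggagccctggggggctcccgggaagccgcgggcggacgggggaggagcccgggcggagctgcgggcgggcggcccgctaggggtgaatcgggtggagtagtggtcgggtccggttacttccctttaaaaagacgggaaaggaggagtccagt
ANPEP nearer start: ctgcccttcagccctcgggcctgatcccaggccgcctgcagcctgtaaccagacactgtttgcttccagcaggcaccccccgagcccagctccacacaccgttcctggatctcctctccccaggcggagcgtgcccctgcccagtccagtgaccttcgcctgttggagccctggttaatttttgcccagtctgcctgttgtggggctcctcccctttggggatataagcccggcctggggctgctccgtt

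Of the metabolic enzymes, GATM, which makes the creatine precursor guanidinoacetate, measured 12.0, 11.2 and 11.4 CPM across lysates 1 to 3 and 7.62, 4.76 and 5.24 CPM across immunoprecipitates 1 to 3. Immunoprecipitate minus lysate, the log2 difference was -0.98 (SE 0.28, adjusted p = 0.143 by edgeR), and it fell by 0.83 (SE 0.21, adjusted p = 0.0168 by edgeR) without the library labelled 2. Retained-intron transcripts held 6.02%, 9.62% and 18.6% of GATM counts in the lysates and 26.2%, 16.3% and 47.5% in the immunoprecipitates. FBP1, a gluconeogenic phosphatase, was at 0.233 to 0.408 CPM over the lysates, against 0.126, 0.699 and 0 CPM in immunoprecipitates 1 to 3, and it overlaps the noncoding gene PCAT7 at 13 CPM. PCK1, which commits carbon to glucose synthesis, had 11 to 22 counts per lysate and 34, 0 and 0 in the immunoprecipitates.

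PAX8 (ENSG00000125618, chr2:113215997-113278921, minus strand), a factor that specifies kidney epithelium, was second to GGT1 in lysate FPKM. It measured 283, 315 and 303 CPM across lysates 1 to 3 and 245, 66.1 and 254 CPM across immunoprecipitates 1 to 3. Immunoprecipitates 1 and 3 kept 81.6% and 84.4% of the lysate level, and the library labelled 2 held 22%. The fitted log2 difference was -0.67 (SE 0.49, adjusted p = 0.464 by edgeR), and PAX8 fell by 0.25 (SE 0.06, adjusted p = 0.0101 by edgeR) without the library labelled 2, the smallest change among the 10 genes called lower. In that fit the median was -0.20 for all expressed genes and -0.58 for those above 100 CPM in lysate. The median of all expressed genes was 87.2% and 85% of lysate in immunoprecipitates 1 and 3. For genes above 100 CPM it was 66.3% in each, so PAX8 lay near the first median and above the second. PAX8-AS1, which overlaps PAX8 on the other strand, ran the other way in the library labelled 2, at 9.10 to 10.3 CPM in lysate and 12.3, 72.0 and 12.2 CPM in the immunoprecipitates. PAX2, its relative, measured 2.65, 2.28 and 2.50 CPM across lysates 1 to 3 and 1.07, 0.548 and 1.30 CPM across immunoprecipitates 1 to 3, with a log2 difference of -1.35 (SE 0.47, adjusted p = 0.189 by edgeR). It fell by 1.05 (SE 0.32, adjusted p = 0.0359 by edgeR) without the library labelled 2. HNF4A, a nuclear receptor that drives proximal tubule maturation, had 3, 41 and 0 counts in immunoprecipitates 1, 2 and 3.

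CDH16 (ENSG00000166589, chr16:66908122-66918917, minus strand), the kidney-specific cadherin, measured 18.4, 20.2 and 19.9 CPM across lysates 1 to 3 and 7.32, 3.31 and 12.2 CPM across immunoprecipitates 1 to 3, with no overlap. The edgeR estimate was -1.36 (log2, SE 0.47, adjusted p = 0.186), and CDH16 fell by 0.99 (SE 0.23, adjusted p = 0.0132 by edgeR) without the library labelled 2. In immunoprecipitate 3, 92.4% of its counts were on ENST00000567269, a transcript annotated as a target of nonsense-mediated decay, against 1.43% to 15.6% in the lysates and 33.8% and 7.43% in immunoprecipitates 1 and 2. The level assigned to coding transcripts was therefore 17 to 18.1 CPM in the lysates and 4.85, 3.06 and 0.923 CPM in the immunoprecipitates. Such assignments are estimates, and they varied among the lysates already.

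**Figure D5:**
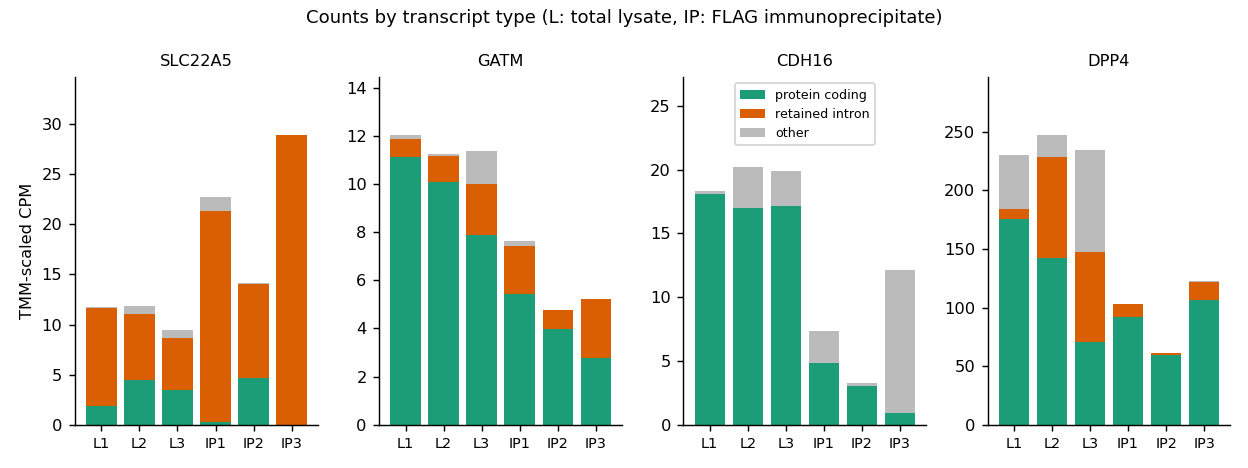
TMM-scaled CPM of 4 tubule genes in each library, split by the annotated type of the transcript that received the counts. SLC22A5 stands highest in immunoprecipitates 1 and 3, mainly on retained-intron transcripts, CDH16 in immunoprecipitate 3 lies mostly outside coding and retained-intron types, and the coding part of DPP4 in lysate 3 (70.6 CPM) lies below that of immunoprecipitate 3 (107 CPM).

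Each gene's leading lysate transcript, the one with most counts over the lysates, was also followed. It was coding in 13 of the 16, a processed transcript in SLC34A1, and a retained-intron transcript in SLC5A2 (ENST00000568188) and SLC22A5 (ENST00000461013). SLC9A3 (ENST00000264938) and SLC34A2 (ENST00000382051) have 1 transcript in the table, and ENST00000314251 held 86.3% to 90.2% of SLC2A2 counts in lysate and at least 72.9% in each immunoprecipitate. For other genes the share varied among lysates already. ENST00000429538 of PAX8 held 8.76%, 22.6% and 61.4% in lysates 1 to 3 and 0%, 75.4% and 0% in immunoprecipitates 1 to 3. ENST00000360490 of MME held 78.2%, 24.9% and 48.7%, then 95.8%, 32.1% and 0%. ENST00000361791 of PAX2 held 26.3% to 73.2% in lysate and 0% in every immunoprecipitate. ENST00000400382 of GGT1 held 41.1% to 71.5% in lysate and 15%, 80.3% and 59.4% in the immunoprecipitates, and ENST00000360534 of DPP4 held 26.8% to 48.3%, then 86.8%, 49.6% and 37.7%. ENST00000300060 of ANPEP held 73.4% to 92.6% in lysate, 0% in immunoprecipitates 1 and 3 and 91.6% in the library labelled 2. ENST00000396659 of GATM held 68.6% to 77.5%, then 35.3%, 81% and 51.9%, ENST00000299752 of CDH16 held 63% to 97.5%, then 66.2%, 92.6% and 7.59%, and ENST00000264485 of SLC4A4 held 41.2% to 51.4%, then 99.2%, 0.662% and 0%. Lysates with near-equal gene levels thus split differently, and gene levels were used for every test.

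Membrane proteins and secreted proteins are made at the endoplasmic reticulum, where VMP1 resides, so the 16 genes were also read by the place of their products. The 12 with a membrane product had a median of 49.3%, 24.3% and 52.8% of lysate in immunoprecipitates 1, 2 and 3. The 4 with a soluble product, DAB2, GATM, PAX2 and PAX8, had 54.6%, 22.3% and 49%. The median fold changes over all 6 libraries were -1.24 and -1.16. With 4 genes in the smaller group the difference was not tested.

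A wider list of 81 genes of the same segment, none of them among the 30, was read for context. Of these 71 had a row, 1 of them by an older symbol, and 44 were at 1 CPM or more in lysate. Over all 6 libraries edgeR called 0 of 53 tested (20 at an unadjusted p below 0.05, beside 21.3% of all genes). DESeq2 called 10 of 57 lower, beside 4.33% of all genes, and 5 higher, beside 7.02%. Without the library labelled 2, edgeR called 30 of 60 lower, beside 27.2% of all genes, and 6 higher, beside 23.9%. The median of the 44 was 59.9%, 48.8% and 56.2% of lysate in immunoprecipitates 1, 2 and 3.

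SLCO4C1, an organic anion carrier of the basolateral membrane, was at 107 to 112 CPM in lysate, against 37.7, 19.3 and 33.5 CPM in immunoprecipitates 1 to 3, lowest in the library labelled 2. GLUL, glutamine synthetase, at 199 to 222 CPM in lysate and 73.3, 107 and 74.3 CPM in the immunoprecipitates, and GPX3, the plasma glutathione peroxidase, at 64.9 to 70.7 CPM and 14.1, 31.6 and 15.8 CPM, were lower in every immunoprecipitate but least so in that library. The scaffold PDZK1 was at 179 to 205 CPM in lysate and 156, 44.5 and 187 CPM in the immunoprecipitates. The linker EZR, at 342 to 346 CPM, had 280, 308 and 262 CPM.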

How the data were processed

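The libraries were made from polyadenylated RNA with a second strand marked by dUTP and read as pairs, per the labels' protocols. No source used here says whether strand entered the counting, so overlapping genes stay uncertain. Tools in the submitters' processing notes are HISAT2 2.2.1, cutadapt 1.9, DESeq2, StringTie 2.1.6 and edgeR, with GRCh38.p14 as build. Whole-number counts for genes and transcripts were used as deposited. FPKM values, as deposited by the authors, served for order between genes and as an alternative. Columns named as inputs were taken as the lysates of the same number. Counts were tested with edgeR 4.0.16 (quasi-likelihood, TMM, default filter, R 4.3.3) over all 6 libraries, with Benjamini-Hochberg adjustment over all tested genes and a threshold of 0.05. Standard errors were derived from the fold change and its F statistic. Medians of shifts add 0.01 CPM. Starts were matched to RefSeq windows within 100 bases. Alternatives were other scalings and filters, DESeq2 1.42.0, limma 3.58.1 on log2(FPKM + 1) and log2(FPKM + 0.1), a replicate block and each library left out. The coding-only count was added after seeing the data. All 30 members are named, with the leading lysate transcript of those at 1 CPM or more. Of the wider list the 4 with the highest lysate FPKM and the 4 with the lowest p are named, and of other cells' markers those at 1 CPM or more; some genes that meet this rule are not reported here. Genes outside this rule (WT1, ASS1, overlapping genes, absent markers) were chosen after values were seen. Simulated counts were used to test the code. The members and lists were chosen with earlier results of these data known.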

Additional observations from a re-analysis of the deposited data

How the results depend on the processing

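The number of members called moved from 0 to 4 with DESeq2 and ranged from 0 to 12 when a library was left out, the 12 only without the library labelled FLAG immunoprecipitate 2. The number of genes called, 136, moved to 40 with no low-count filter, 228 with a mean of 1 CPM as the filter and 2521 with DESeq2, and ranged from 0 to 11273 when a library was left out, the 11273 without the library labelled 2 and 0 without any other. Same-numbered deviations from the group means correlated at -0.01, -0.05 and 0.01. These values cannot tell whether same-numbered libraries are paired, since the library labelled 2 stands apart from the other immunoprecipitates and the lysates differ little. With the replicate number as a block 0 genes and 0 members were called, and the median of tested members was -1.16. That median was -0.73 in the fit reported and lay between -0.17, on log2(FPKM + 1), and -1.16 in all alternatives. With library totals it was -0.56, where the median of all genes moved from 0.06 to 0.19. All 16 expressed members kept their direction under the other count scalings. ANPEP reversed from 2.65 to -0.10 on log2(FPKM + 0.1), to -1.05 with the block, and ranged from -2.10, without the library labelled 2, to 3.21 when a library was left out. SLC13A3 likewise ranged from -6.20, without that library, to 6.35. The causes of these changes were not tested. Members at 1 CPM or more numbered 11 at 1 FPKM, 12 at 5 CPM, 19 at 0.5 CPM, 14 over coding transcripts, and 16 or 17 when a lysate was left out. SLC5A1 and HNF4A did not pass the filter of the fit reported and were not called where other settings tested them.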
